A study of Homo sapiens with 6 samples.

Results

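The SLC25 family, the mitochondrial carriers, was described in Huh-7 cells, an established human hepatocellular carcinoma line, with and without stable RAC3 overexpression. Its members were found by symbol in the authors' gene table, as every symbol that begins with SLC25A and goes on with a digit, together with MTCH1, MTCH2, UCP2 and UCP3. This gave 53 of 20332 rows. SLC25A6 was listed under 2 identifiers with the same values in each sample and was counted once, so the family held 52 of 20318 genes. The study sequenced polyadenylated RNA of 3 negative controls, labelled WT, and of 3 samples titled RAC3, all from Huh-7 cells, to find genes regulated by RAC3, a small GTPase of the Rac family. The RAC3 cells were made with a lentivirus as a stable line, the methods call the RNA samples independent, and nothing says that they came from separately made lines, so p-values measure only the spread between these samples. In the genotype field RAC3 samples 2 and 3 carry the names RAC4 and RAC5, and these samples were grouped by their titles. Total counts were 14368764, 15269997 and 18199888 in the negative controls 1, 2 and 3 and 17332318, 16225766 and 13855762 in the RAC3 samples 1, 2 and 3.

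Carriers of this family are small proteins of the inner mitochondrial membrane, built from repeats of a shared fold, and each moves a particular set of substrates between the cytosol and the matrix. They bring ADP and phosphate to ATP synthesis and send ATP out, pass citrate, malate, aspartate and glutamate between the TCA cycle and the cytosol, and supply cofactors, iron, carnitine esters and glutathione. In the liver they join the steps of the urea cycle, gluconeogenesis and fatty acid synthesis that lie on either side of the membrane. A few members sit elsewhere, such as SLC25A17 in the peroxisome and MTCH1, MTCH2 and SLC25A46 in the outer mitochondrial membrane.

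RAC3 itself was checked first. Its normalized CPM (counts scaled to the TMM library size) was 35.6, 31.4 and 32.8 in the controls, against 233, 239.7 and 226 with RAC3. All RAC3 samples lay far above all negative controls, those labelled RAC4 and RAC5 included, and the log2 fold change of RAC3 was 2.81 (SE 0.0574).

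The cells carried RNA of hepatocyte markers, while CPS1, ARG1 and OTC of the urea cycle did not exceed 0.929 FPKM in any sample. All 9 hepatocyte markers were tested, with albumin (ALB) the most abundant, and their summed FPKM (fragments scaled to transcript length and depth) was 3002, 3094 and 3108 in the controls, against 3136, 2765 and 2825 with RAC3, ranges that overlap. Of these 9, 3 were higher and 2 lower with RAC3, while 13.3% of all genes tested were higher and 15.3% lower. Endothelial markers summed to between 0.490 and 1.22 FPKM in all samples. Of the immune markers, PTPRC and CD3E did not exceed 0.120 FPKM in any sample, while CD68, from 2.89 to 5.32 FPKM without and from 4.88 to 6.05 with RAC3, was called higher at a log2 fold change of 0.47. The 5 fibroblast and stellate cell markers, led by LUM, summed to 73.3, 76.8 and 80.0 FPKM in the controls, against 94.8, 88.4 and 93.2 with RAC3, which do not overlap. Of the 3 tested markers of that list, COL1A2 and LUM were higher and COL1A1 was lower, beside the same shares of all genes. DCN and ACTA2 did not exceed 0.285 FPKM. CD68 lost its call without negative control 3 or RAC3 sample 1 or 2 (range from 0.32 to 0.57) and COL1A1 without negative control 1 or 3 or RAC3 sample 1 or 3 (range from -0.26 to -0.20). COL1A2 had a log2 fold change of 0.51 and kept its call without any 1 sample. Once the GC trend was removed COL1A2 had 0.40 with its call, and LUM had 0.05 and COL1A1 -0.04 without one. The part of these differences in the carrier results was not tested, and fewer cells of one kind and less RNA per cell cannot be told apart in such bulk samples.

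Of the 52 members, 42 had enough counts to be tested among 12929 genes. SLC25A2, SLC25A31 and SLC25A52 had 0 counts in all 6 samples, where 0 leaves room for 3 counts in a library, or 0.165 to 0.217 CPM by counting error alone. The other 7 untested members, SLC25A21, SLC25A27, SLC25A41, SLC25A47, SLC25A48, SLC25A53 and UCP3, had at most 11 counts in any sample. SLC25A47, a carrier known as specific to the liver, had 1 count in RAC3 sample 1 and 0 in the other samples.

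With an adjusted p below 0.05, 11 of the 42 tested members were called, 26.2%, beside 28.5% of all genes tested. Of these, 3 were higher (13.3% of all genes were higher) and 8 were lower (15.3% of all genes were lower). No member passed the study's thresholds of a fold change above 1.5 with an unadjusted p below 0.05 in edgeR's quasi-likelihood test, which 4.67% of all genes passed, and DESeq2 gave 0 members as well. Without the fold threshold, 13 members (31.0%) had an unadjusted p below 0.05 in the edgeR test, beside 39.2% of all genes. The groups did not overlap for 17 of the 42 members, beside 42.5% of all genes. The shares called and without overlap are near the background and are no result about the members. The shares of all genes, 13.3% higher and 15.3% lower, stand beside the counts of each role and partner list as well. Scaling by library size alone gave 4 members higher and 5 lower, and removing each library's trend with GC content gave 3 higher and 5 lower. Leaving out 1 sample in turn gave 0 to 2 higher and 6 to 7 lower.

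The called members were SLC25A17, SLC25A20 and SLC25A46, which were higher, and SLC25A1, SLC25A3, SLC25A5, SLC25A6, SLC25A11, SLC25A22, SLC25A23 and SLC25A29, which were lower. The changes were small. Of the 42 members 3 moved by more than 0.3 on the log2 scale (7.14%, beside 23.1% of all genes), namely SLC25A22, SLC25A23 and SLC25A29, and the log2 fold changes of the family lay between -0.51 and 0.27. Their median was -0.03, beside 0.00 for all genes, and it was 0.02 with scaling by library size alone, beside 0.06 for all genes, and 0.02 with the GC trend removed, beside 0.00 for all genes.

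**Figure D1:**
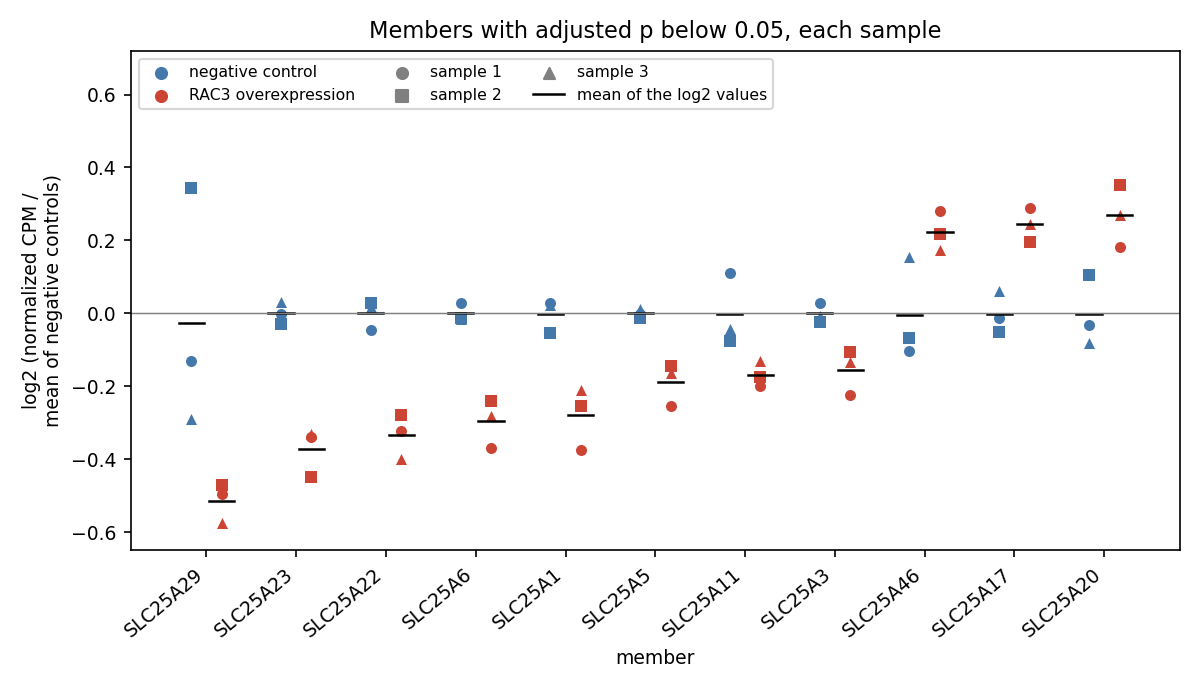
Members with an adjusted p below 0.05 in edgeR's quasi-likelihood test. The vertical axis gives log2 of each sample's normalized CPM over the mean of the 3 negative controls, symbols give the sample number, and bars give the mean of the log2 values of each group. In each of the 11 members the RAC3 samples lie on 1 side of all negative controls, and SLC25A29 has the widest spread among the negative controls.

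Level of expression divided the family more than RAC3 did. Per transcript length, SLC25A3 with 644 FPKM and SLC25A5 with 554 FPKM, as means of all 6 samples, held 31.3% and 26.9% of the FPKM of the whole family. SLC25A6, MTCH1, MTCH2, SLC25A39 and SLC25A1 followed with 145, 91.0, 79.4, 73.3 and 64.8 FPKM, and the lowest tested member, SLC25A34, had 0.270 FPKM. Among the 7 members with a mean of at least 50 FPKM, 4 were lower and 0 were higher in edgeR's adjusted test, with 4 lower and 0 higher also at an unadjusted p below 0.05 and in DESeq2. Of the 1824 genes of that level in the whole table, 586 were lower and 238 were higher. Between 10 and 50 FPKM, 3 of 17 members were higher and 3 lower, beside 802 higher and 792 lower of 4541 genes. Below 10 FPKM 0 of 18 members were higher and 1 lower, beside 676 higher and 597 lower of 6564 genes. With the GC trend removed, 2 of the 7 most abundant members were lower and 1 was higher, and with library size scaling 3 were lower and 0 higher.

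**Figure D2:**
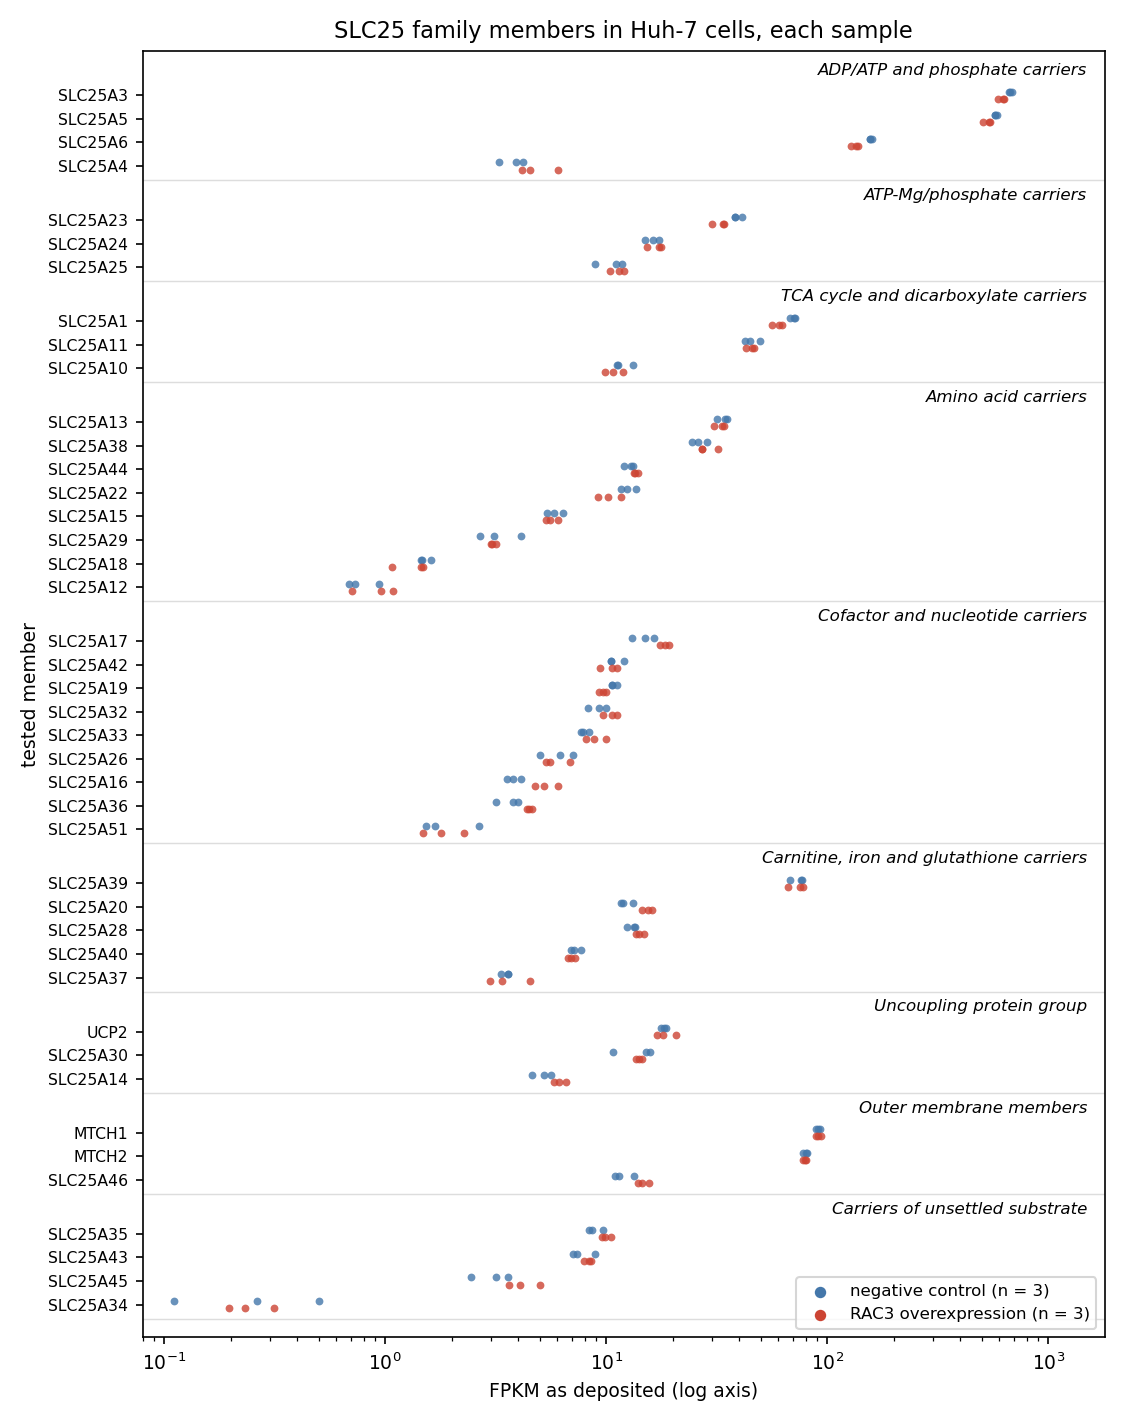
FPKM of the 42 tested members in each of the 6 samples on a log axis, grouped by what the members carry. The 2 groups lie close together for nearly all members, while the members span from 0.270 FPKM for SLC25A34 to 644 FPKM for SLC25A3 as means of all samples.

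Promoters of members that moved are given here with the bases that were searched. RefSeq's promoter table (GRCh38.p14) had an entry for 44 of the 52 members, and the 250 bases before each start were searched on both strands for the E-box CACGTG, the hypoxia response core ACGTG, which also lies inside every CACGTG, the composite element TGATGNAA of ATF4 and C/EBP proteins, and the NRF1 core CGCATGCG. The 7 runs of this paragraph lie outside every annotated exon, read 5′ to 3′ on the strand of the gene, in lower case with matches in capitals. SLC25A23, SLC25A1, SLC25A3 and SLC25A29 were lower with RAC3, SLC25A20 and SLC25A17 were higher, and SLC25A31, the ADP/ATP carrier of the testis, had 0 counts.
SLC25A23, chr19:6459793-6459912, minus strand: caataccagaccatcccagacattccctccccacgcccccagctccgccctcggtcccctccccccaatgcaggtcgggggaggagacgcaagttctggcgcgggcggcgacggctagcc
SLC25A1, chr22:19178831-19178950, minus strand: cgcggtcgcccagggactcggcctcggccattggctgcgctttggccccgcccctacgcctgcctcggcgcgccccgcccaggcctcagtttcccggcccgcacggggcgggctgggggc
SLC25A3, chr12:98593471-98593590, plus strand: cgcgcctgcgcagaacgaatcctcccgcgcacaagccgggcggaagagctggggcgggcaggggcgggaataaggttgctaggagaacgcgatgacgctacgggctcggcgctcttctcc
SLC25A29, chr14:100306548-100306667, minus strand: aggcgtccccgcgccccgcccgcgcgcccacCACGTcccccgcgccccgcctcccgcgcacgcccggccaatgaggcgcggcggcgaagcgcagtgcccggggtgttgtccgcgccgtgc
SLC25A20, chr3:48898994-48899113, minus strand: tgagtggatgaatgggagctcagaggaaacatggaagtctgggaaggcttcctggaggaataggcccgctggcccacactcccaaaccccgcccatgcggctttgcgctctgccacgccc
SLC25A17, chr22:40819400-40819519, minus strand: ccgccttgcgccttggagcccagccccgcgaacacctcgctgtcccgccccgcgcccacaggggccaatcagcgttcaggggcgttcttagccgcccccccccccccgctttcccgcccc
SLC25A31, chr4:127730258-127730377, plus strand: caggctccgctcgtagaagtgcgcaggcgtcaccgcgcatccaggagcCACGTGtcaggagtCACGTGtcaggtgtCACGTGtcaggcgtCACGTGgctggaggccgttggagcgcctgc
Of the 6 called members shown, SLC25A29 alone had a match, an ACGTG on the opposite strand, and SLC25A31 held the E-box 4 times in the run shown.

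An E-box lay in 8 of the 44 promoters, those of MTCH1, SLC25A13, SLC25A31, SLC25A33, SLC25A36, SLC25A38, SLC25A46 and SLC25A51, and in 6.49% of all 27305 promoters of the table. The ACGTG core lay in 12 of 44 and in 18.7% of all. TGATGNAA lay in 1 of 44, that of SLC25A11, and in 3.19% of all, and CGCATGCG in 1 of 44, that of MTCH2, and in 1.86% of all. Among the 8 lower members 0 had an E-box, 1 (SLC25A29) had ACGTG and 1 (SLC25A11) had TGATGNAA, and among the 3 higher members SLC25A46 had an E-box. The next lines give the matches of SLC25A46, SLC25A11 and MTCH2 with the bases around them, in capitals the match. In the windows of SLC25A46 and SLC25A11 no run of 40 bases lay outside annotated exons.
SLC25A46, chr5:110738948-110738977, plus strand: agaggctataatCACGTGctccgaagactt
SLC25A11, chr17:4940099-4940128, minus strand: ttctcgcacgcTTCCATCAagctcctcctt
MTCH2, chr11:47642687-47642716, minus strand: ccccggcagaaCGCATGCGcctctgtccct
A match is a run of letters in this window and says nothing of whether a factor binds there.

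The ADP/ATP and phosphate carriers, which feed ATP synthesis, were lower with RAC3 in 3 of 4 tested members (15.3% of all genes were lower), and in 2 of 4 both with library size scaling and with the GC trend removed. The 3 lower members had means of at least 50 FPKM, a level at which 586 of 1824 genes were lower. SLC25A3, the phosphate carrier (chromosome 12 from 98593591 to 98606379), had 630.0, 607 and 614 normalized CPM in the controls, against 529, 573 and 563 with RAC3. Each RAC3 sample lay below each negative control, with sample 1 the lowest. SLC25A3 fell by 0.15 on the log2 scale (SE 0.0403, adjusted p = 0.0075 in edgeR's quasi-likelihood test, adjusted by Benjamini-Hochberg), and by 0.23 with the GC trend removed. With scaling by library size alone it had -0.10 and no call, with an adjusted p of 0.0628 in the same edgeR test.

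SLC25A5, the ADP/ATP carrier ANT2 (chromosome X from 119468400 to 119471319), had 772, 767 and 779.6 normalized CPM in the controls, against 648, 699.7 and 690.4 with RAC3. The negative controls lay close together and above all RAC3 samples. Its log2 fold change was -0.19 (SE 0.0389, adjusted p = 0.00143 in edgeR's quasi-likelihood test, adjusted by Benjamini-Hochberg). SLC25A6, the carrier ANT3 from the region that the X and Y chromosomes share (position on X from 1386152 to 1392724), had 238, 231 and 231 normalized CPM in the controls, against 181, 198 and 192 with RAC3, again without overlap. Its log2 fold change was -0.30 (SE 0.0456, adjusted p = 8.99e-05 in edgeR's quasi-likelihood test, adjusted by Benjamini-Hochberg). With the GC trend removed SLC25A6 lost its call, at -0.08 with an adjusted p of 0.127 in the same edgeR test, while SLC25A5 kept it at -0.17.

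Together SLC25A4, SLC25A5 and SLC25A6 summed to 737, 737 and 747 FPKM in the controls, against 642, 686 and 676 with RAC3. The summed level of the carriers that exchange ADP for ATP was thus lower in every RAC3 sample. SLC25A5 made up 77.9%, 78.2% and 78.6% of that sum in the controls, against 79.2%, 79.2% and 79.5% with RAC3. SLC25A4, the ANT1 form of heart and muscle, made up 0.531%, 0.569% and 0.436% of the sum in the controls, against 0.945%, 0.662% and 0.612% with RAC3, while its FPKM overlapped between the groups, with a log2 fold change of 0.20 (SE 0.128, adjusted p = 0.247 in edgeR's quasi-likelihood test, adjusted by Benjamini-Hochberg). The annotation holds 9 pseudogenes named after SLC25A5 and 6 named after SLC25A6, and how reads were shared among such copies is not given in the sources used here, so the levels of these carriers are uncertain, and exons of SLC25A5 share 227 bases with SLC25A5-AS1 on the opposite strand. The same uncertainty holds for SLC25A1 and SLC25A15, with 5 pseudogenes named after each.

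The calcium-regulated carriers that exchange ATP-Mg for phosphate held the member with the smallest p of the family. SLC25A23 (chromosome 19 from 6436079 to 6465203) had 118, 115 and 120.4 normalized CPM in the controls, against 93.2, 86.3 and 93.7 with RAC3. All RAC3 samples lay below all negative controls, and the gap between the groups was wider than the spread within either. SLC25A23 fell by 0.37 on the log2 scale (SE 0.0526, adjusted p = 3.63e-05 in edgeR's quasi-likelihood test, adjusted by Benjamini-Hochberg), and by 0.23 with the GC trend removed, where it was still called. SLC25A24 and SLC25A25, carriers of the same kind, had log2 fold changes of 0.02 and 0.04, and neither passed the test. SLC25A24 turned to -0.13 with the GC trend removed, and its exons share up to 924 bases with genes on the opposite strand.

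Of the carriers of the TCA cycle and of dicarboxylates, 2 of 3 tested members were lower, beside 15.3% of all genes. At the level of SLC25A1, at least 50 FPKM, 586 of 1824 genes were lower. At that of SLC25A11, from 10 to 50 FPKM, 792 of 4541 were. SLC25A1, which exports citrate for fatty acid and sterol synthesis in the cytosol (chromosome 22 from 19175575 to 19178830), had 112, 106 and 112 normalized CPM in the controls, against 84.7, 92.0 and 95.0 with RAC3, which did not overlap. Its log2 fold change was -0.28 (SE 0.0555, adjusted p = 0.000949 in edgeR's quasi-likelihood test, adjusted by Benjamini-Hochberg). With the GC trend removed the value was -0.06, with an adjusted p of 0.429 in the same edgeR test. SLC25A11, the oxoglutarate carrier of the malate-aspartate shuttle, had 72.8, 63.8 and 65.4 normalized CPM in the controls, against 58.6, 59.7 and 61.5 with RAC3, so the groups came close, and per length its FPKM overlapped between them. Its exons share 244 bases with RNF167 on the opposite strand. It fell by 0.17 on the log2 scale (SE 0.0622, adjusted p = 0.0495 in edgeR's quasi-likelihood test, adjusted by Benjamini-Hochberg), and this call was lost with DESeq2's size factors, with DESeq2, with library size scaling, with the GC trend removed (-0.01, adjusted p = 0.903 in that edgeR test) and without any 1 of the samples other than negative control 2, where in these last fits the log2 fold change ran from -0.19 to -0.11. SLC25A10, the dicarboxylate carrier, had a log2 fold change of -0.20, which did not pass and turned to 0.02 with the GC trend removed. Exons of SLC25A10 share 1221 bases with AC139530.2 on the same strand. With the GC trend removed 0 of these 3 carriers were called, and with library size scaling 1 was lower.

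Among 8 tested amino acid carriers, 2 were lower and 0 were higher (15.3% and 13.3% of all genes), with 2 lower and 0 higher also at an unadjusted p below 0.05 in edgeR's test, and 1 lower and 0 higher in DESeq2. With library size scaling 1 was lower, as with the GC trend removed. SLC25A22, a glutamate carrier (chromosome 11 from 790475 to 798333), had 29.8, 31.4 and 31.1 normalized CPM in the controls, against 24.6, 25.4 and 23.3 with RAC3, which did not overlap, while per length its FPKM did. Its log2 fold change was -0.33 (SE 0.0767, adjusted p = 0.00318 in edgeR's quasi-likelihood test, adjusted by Benjamini-Hochberg), and -0.13 with the GC trend removed, where the call was lost. Exons of SLC25A22 share 504 bases with PANO1 on the opposite strand, and the library kit does not mark the strand, so reads of the 2 genes cannot be told apart there.

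SLC25A29, a carrier of basic amino acids (chromosome 14 from 100291111 to 100306547), rested on few reads, with 105, 157 and 121 counts in the controls, against 104, 98 and 78 with RAC3. In normalized CPM these were 7.53, 10.5 and 6.75 against 5.86, 5.95 and 5.54, and negative control 2 stood above the rest. SLC25A29 had the lowest log2 fold change of the family, -0.51 (SE 0.173, adjusted p = 0.0348 in edgeR's quasi-likelihood test, adjusted by Benjamini-Hochberg). Without negative control 2 the value was -0.30 with an adjusted p of 0.230 in the same edgeR test, and the call was also lost without each of the RAC3 samples in turn (log2 fold changes from -0.53 to -0.48), in DESeq2, with library size scaling (-0.45) and with the GC trend removed (-0.36). Exons of SLC25A29 share up to 693 bases with the non-coding genes AL157871.1 and AL157871.6. Per length its FPKM overlapped between the groups, at 3.10, 4.10 and 2.69 against 3.19, 3.03 and 3.02.

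The aspartate-glutamate carriers differed by level. SLC25A13 (citrin), the form of the liver that works with the urea cycle, had 33.8 ± 1.83 FPKM (SD, n = 3) in the negative controls, and SLC25A12 (aralar), the form of brain and muscle, had 0.784 ± 0.133 FPKM (SD, n = 3). Neither passed the test, with log2 fold changes of -0.08 and 0.24. With 1 sample left out the value of SLC25A12 ran from 0.12 to 0.43. SLC25A13 had 101, 106 and 105 normalized CPM in the controls, against 97.6, 102 and 94.1 with RAC3, which overlap, and with the GC trend removed it was called lower at -0.14. SLC25A38, which brings glycine to haem synthesis, SLC25A44, a carrier of branched-chain amino acids, and SLC25A15, the ornithine carrier of the urea cycle, had log2 fold changes of -0.02, 0.06 and -0.11, and none passed.

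The cofactor and nucleotide carriers, 9 tested members, had 1 higher and 0 lower (13.3% and 15.3% of all genes), with 2 higher and 0 lower at an unadjusted p below 0.05 in edgeR's test, and 1 higher and 0 lower in DESeq2. With library size scaling 2 were higher, and with the GC trend removed 0 were called. SLC25A17, which carries coenzyme A, FAD and NAD+ into peroxisomes (chromosome 22 from 40769630 to 40819399), had 28.1, 27.4 and 29.6 normalized CPM in the controls, against 34.7, 32.5 and 33.6 with RAC3, all of them above the negative controls. SLC25A17 rose by 0.24 on the log2 scale (SE 0.0736, adjusted p = 0.0183 in edgeR's quasi-likelihood test, adjusted by Benjamini-Hochberg). This call was lost with the GC trend removed (0.15), without negative control 2 (0.21), without RAC3 sample 1 (0.22) and without RAC3 sample 3 (0.24), with adjusted p-values from 0.0535 to 0.145 in edgeR's quasi-likelihood test. SLC25A33 and SLC25A36, carriers of pyrimidine nucleotides, had log2 fold changes of 0.11 and 0.12 and did not pass, and SLC25A36 turned to -0.05 with the GC trend removed. SLC25A51, which takes up NAD+, was low at 1.90 FPKM as a mean of all samples, with a log2 fold change of -0.09 (SE 0.289).

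Of the carnitine, iron and glutathione carriers, 5 tested members, SLC25A20 alone was called, and with the GC trend removed 1 was higher and 1 lower. It passes fatty acids bound to carnitine into the matrix for oxidation (chromosome 3 from 48856931 to 48898993). Its normalized CPM was 21.7, 23.8 and 20.9 in the controls, against 25.1, 28.3 and 26.7 with RAC3, which lay above all negative controls. SLC25A20 rose by 0.27 on the log2 scale (SE 0.0856, adjusted p = 0.0229 in edgeR's quasi-likelihood test, adjusted by Benjamini-Hochberg), and by 0.31 with the GC trend removed. Without negative control 1 or 3 the log2 fold change was 0.25 or 0.22, and without RAC3 sample 2 or 3 it was 0.23 or 0.27, each with the call lost (adjusted p-values from 0.0579 to 0.0977 in edgeR's quasi-likelihood test). SLC25A39, which imports glutathione, was the most abundant of the group at 73.3 FPKM and had a log2 fold change of -0.05, which turned to 0.10 with the GC trend removed. Its paralog SLC25A40 had -0.15 and was called lower only with the GC trend removed, at -0.34. The iron carriers SLC25A28 and SLC25A37, the mitoferrins, had log2 fold changes of 0.06 and -0.28, neither of them past the threshold.

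None of the 3 tested members of the uncoupling protein group was called by edgeR's adjusted test, with 0 also at an unadjusted p below 0.05 and in DESeq2. UCP2, the most abundant of them at 18.4 FPKM, had 31.5, 28.7 and 29.3 normalized CPM in the controls, against 27.2, 33.2 and 29.2 with RAC3, which overlap, with a log2 fold change of 0.0016 (SE 0.0838). UCP2 had 0.15 with the GC trend removed and 0.06 with library size scaling, neither with a call. SLC25A14 and SLC25A30 had log2 fold changes of 0.22 and 0.15 in the main test. UCP3, the form of muscle, had 9, 11 and 5 counts in the controls, against 5, 8 and 2 with RAC3, too few to be tested.

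In the outer membrane, MTCH1 and MTCH2 did not pass the test. MTCH1 had 188, 188 and 180.1 normalized CPM in the controls, against 175, 185 and 178 with RAC3, and MTCH2, an insertase for membrane proteins, had 155, 148 and 151 against 145, 154 and 152, so both overlapped. Their log2 fold changes were -0.05 (SE 0.0452) and -0.01 (SE 0.0472). Library size scaling put them at 0.01 and 0.05, below the median of all genes in that fit, 0.06. With the GC trend removed MTCH1 was called higher, at 0.11, and MTCH2 had -0.11 without a call. SLC25A46, which acts in the shape and fusion of mitochondria (chromosome 5 from 110738136 to 110765161), had 38.6, 39.6 and 46.2 normalized CPM in the controls, against 50.3, 48.2 and 46.8 with RAC3. Negative control 3 came close to RAC3 sample 3, and the other negative controls lay lower. SLC25A46 rose by 0.22 on the log2 scale (SE 0.0733, adjusted p = 0.0300 in edgeR's quasi-likelihood test, adjusted by Benjamini-Hochberg), which kept its call without negative control 3, at 0.30, lost it without each of the other samples in turn (0.17 to 0.24), and was 0.01 with the GC trend removed.

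Carriers of unsettled substrate had 0 of 4 tested members called in edgeR's adjusted test, with 0 also at an unadjusted p below 0.05 and in DESeq2. SLC25A35, the most abundant of them at 9.43 FPKM, had a log2 fold change of 0.11 (SE 0.0961), and 0.27 with the GC trend removed, where it was called higher. Its exons share 1293 bases with RANGRF on the opposite strand.

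Log2 fold changes went with base composition in the whole table. In 5 bins of all tested genes, by the GC content of the longest transcript, the median log2 fold change was 0.15 in the bin of lowest GC content and 0.09, 0.01, -0.09 and -0.18 in the next bins. The difference between the highest and the lowest bin in a library, with the average control as reference, was 0.10, -0.04 and -0.06 in the controls, against -0.43, -0.25 and -0.30 with RAC3. The 3 higher members had a median GC content of 42.5% and the 8 lower members 58.9%, though SLC25A3, which was lower, had 43.9%. That value is uncertain. In negative control 1 SLC25A3 had 8788 counts and 682 FPKM, while SLC25A5 had 10774 counts and 574 FPKM. The longest transcript of SLC25A3 has 6087 bases, against 1274 for SLC25A5, and may not be the form that was counted. Whether the longest transcript was the counted form was not tested for other genes. With each library's trend removed, 8 members were called, of which SLC25A3, SLC25A5, SLC25A20 and SLC25A23 were among the 11, and MTCH1, SLC25A13, SLC25A35 and SLC25A40 were gained. SLC25A1, SLC25A6, SLC25A11, SLC25A17, SLC25A22, SLC25A29 and SLC25A46 were lost. Over all genes, 20.9% were called after that step. The part of base composition in the carrier results was not tested beyond this.

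**Figure D3:**
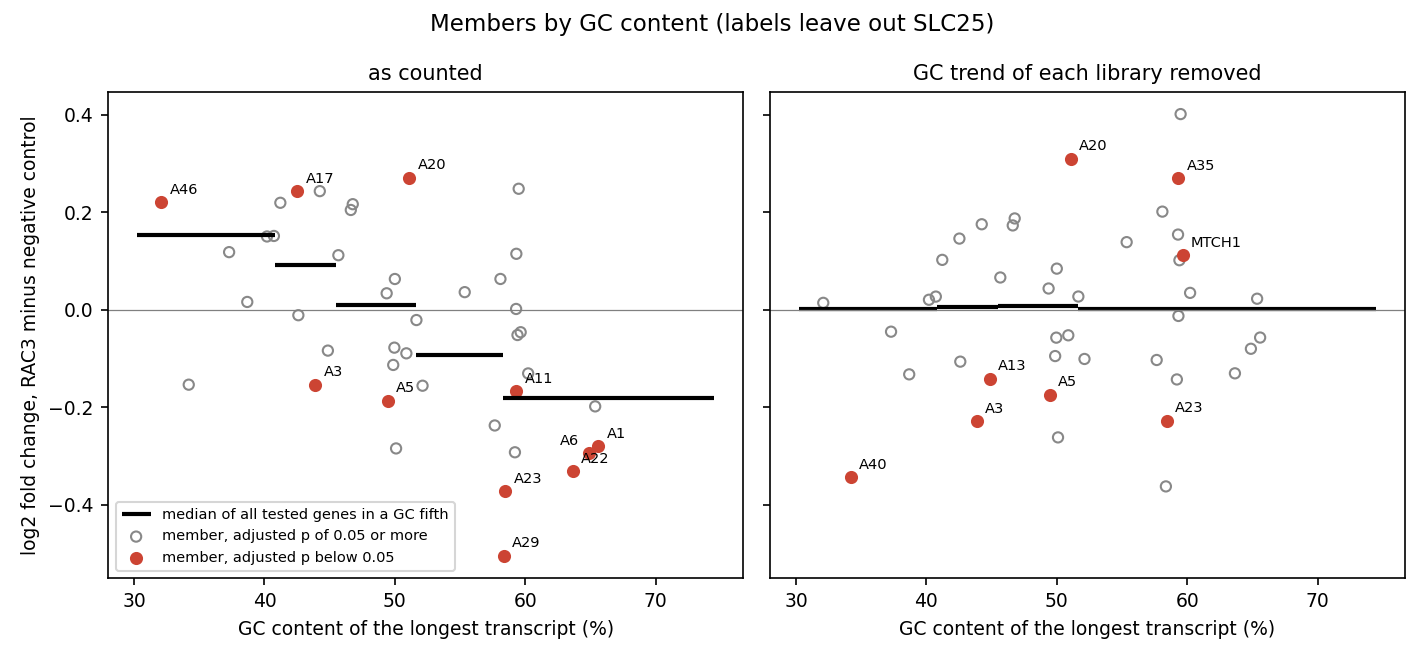
Log2 fold change of the 42 tested members (RAC3 minus negative control) against the GC content of the longest transcript in percent, as counted on the left and with each library's GC trend removed on the right. Horizontal bars give the median of all tested genes in each of 5 GC bins, which runs from 0.15 to -0.18 on the left and lies near 0 on the right, and filled points are members with an adjusted p below 0.05.

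Ratios of paralogs inside a library do not depend on library scaling, and 7 pairs were compared as log2 ratios of counts. SLC25A24 over SLC25A23 was -1.12, -0.96 and -0.97 in the controls, against -0.60, -0.65 and -0.62 with RAC3, a shift of 0.39 without overlap. SLC25A5 over SLC25A6 was 1.70, 1.73 and 1.76 against 1.84, 1.82 and 1.85, a shift of 0.11 without overlap. SLC25A28 over SLC25A37 was 0.62, 0.84 and 0.71 against 1.00, 1.23 and 1.01, a shift of 0.35 without overlap, which was 0.09 with overlap when FPKM took the place of counts. In these 3 pairs the RAC3 samples all lay above the negative controls, and the exact permutation test gave a p of 0.1, below which 3 samples per group cannot go, and 0.233 after adjustment over the 7 pairs.

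The other 4 pairs overlapped between the groups. SLC25A13 over SLC25A12 differed by -0.28 (exact permutation p = 0.4), and by -0.48 to -0.18 with 1 sample left out. SLC25A39 over SLC25A40 differed by 0.09 (exact permutation p = 0.6) and MTCH1 over MTCH2 by -0.04 (exact permutation p = 0.4). SLC25A36 over SLC25A33 differed by 0.01 (exact permutation p = 0.9), and by 0.14 when FPKM took the place of counts (exact permutation p = 0.4). A ratio of 2 genes still holds their difference in GC content. In the fit with the GC trend removed, the difference between the log2 fold changes of SLC25A5 and SLC25A6, with GC contents of 49.5% and 64.9%, turned from 0.11 to -0.09, that of SLC25A24 and SLC25A23, with 38.7% and 58.5%, went from 0.39 to 0.10, and that of SLC25A28 and SLC25A37, with 58.1% and 50.1%, went from 0.35 to 0.46. The difference of MTCH1 and MTCH2, with 59.7% and 42.6%, turned from -0.03 to 0.22, that of SLC25A36 and SLC25A33 from 0.0063 to -0.11, that of SLC25A39 and SLC25A40 went from 0.10 to 0.44, and that of SLC25A13 and SLC25A12 from -0.33 to -0.32.

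**Figure D4:**
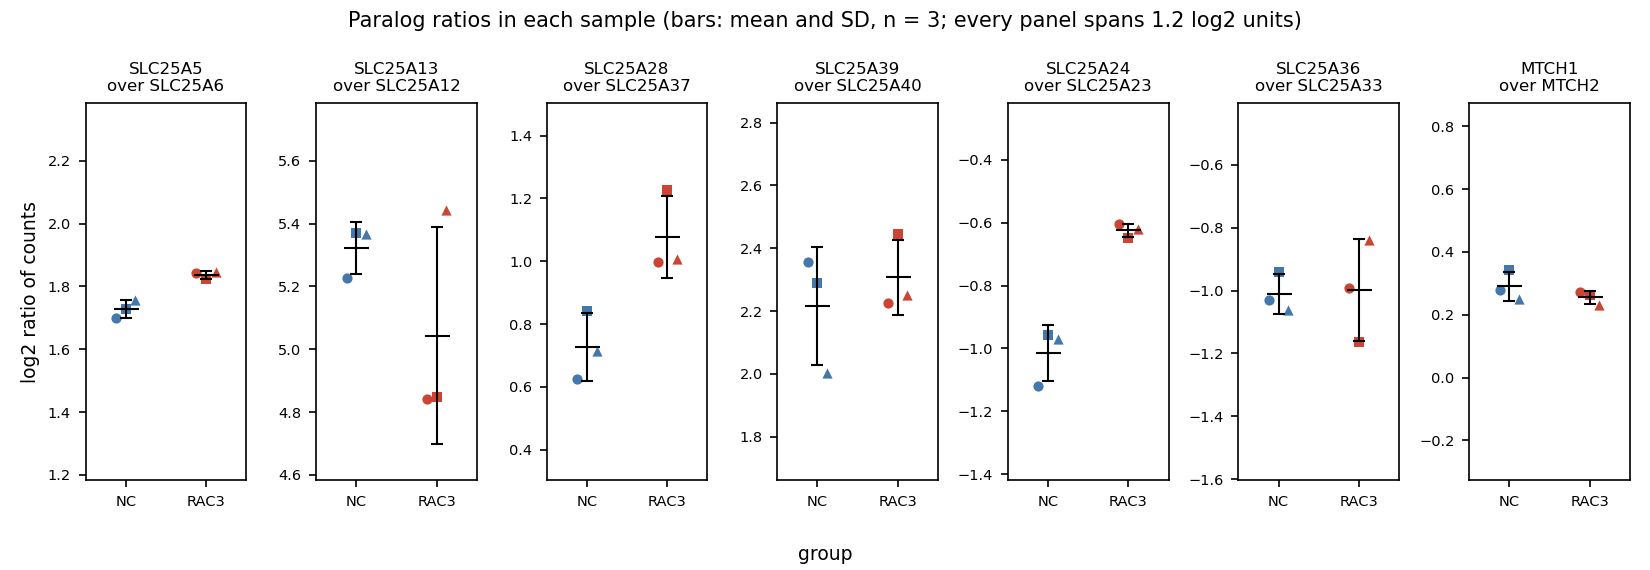
Log2 ratio of counts of 7 paralog pairs in each sample, with the mean and SD of each group (n = 3), every panel spanning the same range of log2 units. The RAC3 samples lie above all negative controls for SLC25A5 over SLC25A6, SLC25A28 over SLC25A37 and SLC25A24 over SLC25A23, and the groups overlap for the other 4 pairs.

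Genes that work beside the carriers were read from 7 lists, beside 13.3% of all genes higher and 15.3% lower. Import of carriers into the inner membrane runs through receptors and small chaperones, and of 16 tested genes 2 were higher and 2 lower, or 2 higher and 0 lower with library size scaling, or 2 higher and 3 lower with the GC trend removed. TOMM70, the receptor for carrier precursors, had 148, 144 and 151 normalized CPM in the controls, against 179.7, 170.1 and 181 with RAC3, all above the negative controls. TOMM70 rose by 0.26 on the log2 scale (SE 0.0469, adjusted p = 0.000356 in edgeR's quasi-likelihood test, adjusted by Benjamini-Hochberg), and TOMM5 by 0.25. Once the GC trend was removed TOMM70 had 0.16 and TOMM5 had 0.14, the latter without a call. TIMM9, a chaperone between the membranes, and TOMM7 fell by 0.22 and 0.23, and neither was called in DESeq2, while with the GC trend removed they had -0.34 and -0.29. TOMM7 also lost its call without any 1 sample other than negative control 2, over a range from -0.28 to -0.18, and TIMM9 without negative control 1 or 3 or RAC3 sample 1 or 3, over a range from -0.28 to -0.19.

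Of 24 other mitochondrial transporters, among them the pyruvate carrier, porins and the calcium uniporter, 2 were higher and 0 lower in edgeR's adjusted test, with 2 higher and 1 lower at an unadjusted p below 0.05 and 2 higher and 0 lower in DESeq2. Removing the GC trend gave 3 higher and 1 lower, all of them other genes. The 2 called in the main test were MCU, the pore of the calcium uniporter, with a log2 fold change of 0.17, and the porin VDAC3 with 0.14. MCU lost its call without negative control 2, over a range from 0.15 to 0.19, and VDAC3 without negative control 1 or 2 or RAC3 sample 1 or 3, over a range from 0.12 to 0.16. Both also lost it with the GC trend removed, at 0.10 for MCU and 0.05 for VDAC3.

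Enzymes on either side of the citrate, malate and aspartate carriers had 4 lower and 0 higher of 18 tested, a share called of 22.2% beside 28.5% of all genes, in edgeR's adjusted test, with 5 lower and 0 higher at an unadjusted p below 0.05 and 4 lower and 0 higher in DESeq2. Removing the GC trend gave 5 lower and 1 higher. IDH2, the isocitrate dehydrogenase of the matrix, had 392, 357 and 351 normalized CPM in the controls, against 240.0, 252 and 242 with RAC3. PC, pyruvate carboxylase, had 214, 184 and 194 against 131, 137 and 138, so both enzymes were lower in every RAC3 sample than in every negative control. Their log2 fold changes were -0.58 (SE 0.0467, adjusted p = 4.67e-08) and -0.54 (SE 0.0533, adjusted p = 6.05e-07) in edgeR's quasi-likelihood test, adjusted by Benjamini-Hochberg, and -0.47 and -0.37 with the GC trend removed. ACLY, which splits the exported citrate, fell by 0.19, beside the citrate carrier SLC25A1 at -0.28. With the GC trend removed ACLY had -0.13 with its call, and SLC25A1 had -0.06 without one. GOT1 of the malate-aspartate shuttle fell by 0.18, a call lost without negative control 2 or RAC3 sample 2 (range from -0.21 to -0.16) and with the GC trend removed (-0.12).

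The enzymes around the ornithine carriers, those of the urea cycle and of proline synthesis, had 5 lower and 0 higher of 10 tested in edgeR's adjusted test, with the same counts at an unadjusted p below 0.05 and in DESeq2, and 4 lower with the GC trend removed. NAGS, which makes the activator of the urea cycle, had 9.89, 7.20 and 6.58 normalized CPM in the controls, against 4.67, 4.01 and 3.26 with RAC3. ASS1, argininosuccinate synthase, had 139.8, 132 and 132 against 96.2, 97.0 and 93.7. ARG2, the arginase of mitochondria, had 9.46, 9.06 and 9.82 against 4.95, 6.68 and 6.03. In these 3 enzymes every RAC3 sample lay below every negative control. The log2 fold changes of NAGS, ASS1 and ARG2 were -0.97, -0.49 and -0.69, NAGS and ARG2 passed the study's thresholds, and the largest adjusted p of the 3 was 0.00217 in edgeR's quasi-likelihood test, adjusted by Benjamini-Hochberg. PYCR1 of proline synthesis fell by 0.28, and with the GC trend removed it had -0.10 without a call, and ALDH18A1 fell by 0.12, a call lost without any 1 sample other than RAC3 sample 2 (range from -0.15 to -0.10) and kept with the GC trend removed (-0.11). The ornithine carrier SLC25A15 itself did not pass, at -0.11 (SE 0.0909). CPS1 and ARG1 of the urea cycle were low, with means of 0.287 and 0.611 FPKM over all samples, and did not pass. OTC had at most 2 counts in any sample and was not tested.

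Beside the cofactor carriers, 2 of 18 tested enzymes were higher and 3 lower, or 4 higher and 2 lower with library size scaling. SHMT2, which takes 1-carbon units from serine in the matrix, had 547, 548 and 535 normalized CPM in the controls, against 403, 435 and 413 with RAC3. MTHFD1L, of the same folate pathway, had 81.2, 73.0 and 70.4 against 51.9, 56.7 and 58.8. Both were lower in every RAC3 sample, with log2 fold changes of -0.38 and -0.42 (adjusted p-values 1.39e-06 and 0.000109 in edgeR's quasi-likelihood test, adjusted by Benjamini-Hochberg). MTHFD2 fell by 0.15, a call lost without negative control 2 or 3 or RAC3 sample 1 or 3 (range from -0.18 to -0.13), and by 0.26 with the GC trend removed. NADK2 and NMNAT3, which act on mitochondrial NAD+, rose by 0.44 and 0.51, or 0.27 and 0.44 with the GC trend removed. SLC25A32, the folate carrier, had 0.15 (SE 0.0919) and did not pass. It had 0.02 with the GC trend removed and ran from 0.05 to 0.20 with 1 sample left out. Exons of SLC25A32 share up to 2547 bases with AC012213.5 on the same strand and DCAF13 on the opposite strand.

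Of 15 tested enzymes beside the carnitine, iron and glutathione carriers, 2 were higher and 4 lower, and 0 were higher and 2 lower (GPX4 at -0.14 and CPOX at -0.33) with the GC trend removed. GPX4, a peroxidase that uses glutathione, had 375, 347 and 349.9 normalized CPM in the controls, against 264, 304 and 285 with RAC3, all below the negative controls, with a log2 fold change of -0.33 (SE 0.0498, adjusted p = 7.24e-05 in edgeR's quasi-likelihood test, adjusted by Benjamini-Hochberg). CPOX and PPOX of haem synthesis fell by 0.32 and 0.59. PPOX passed the study's thresholds, its groups overlapped, and its call was lost with the GC trend removed (-0.42) and without negative control 1 or 3 or RAC3 sample 1 or 3, over a range from -0.83 to -0.42. CRAT, carnitine acetyltransferase, fell by 0.28, or by 0.09 without a call once the GC trend was removed. GCLM and GCLC, the subunits of the first enzyme of glutathione synthesis, rose by 0.26 and 0.25. The groups overlapped for GCLC, which lost its call without negative control 3 or RAC3 sample 1 or 3, over a range from 0.18 to 0.33. Neither GCLM nor GCLC was called with the GC trend removed, at 0.10 and 0.19.

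Regulators of mitochondrial gene expression had 4 higher and 3 lower of 12 tested, and 2 higher and 1 lower with the GC trend removed. TFAM, which packs mitochondrial DNA, had 51.4, 52.3 and 59.1 normalized CPM in the controls, against 77.0, 67.3 and 73.2 with RAC3. MYC had 62.5, 62.5 and 64.9 against 84.6, 91.1 and 85.7. Both were higher in every RAC3 sample, with log2 fold changes of 0.41 and 0.46 (adjusted p-values 0.000164 and 7.44e-06 in edgeR's quasi-likelihood test, adjusted by Benjamini-Hochberg). GABPA rose by 0.36 and TFB2M by 0.25, the latter without a call when negative control 1 or 2 was left out, over a range from 0.21 to 0.34. Neither was called once the GC trend was removed, at 0.19 and 0.15, while TFAM kept 0.26 and MYC 0.54. NRF1, ESRRA and POLRMT, the RNA polymerase of mitochondria, fell by 0.29, 0.30 and 0.28, and with the GC trend removed NRF1 kept -0.29 and its call, while ESRRA and POLRMT had -0.10 and -0.05 without one.

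**Figure D5:**
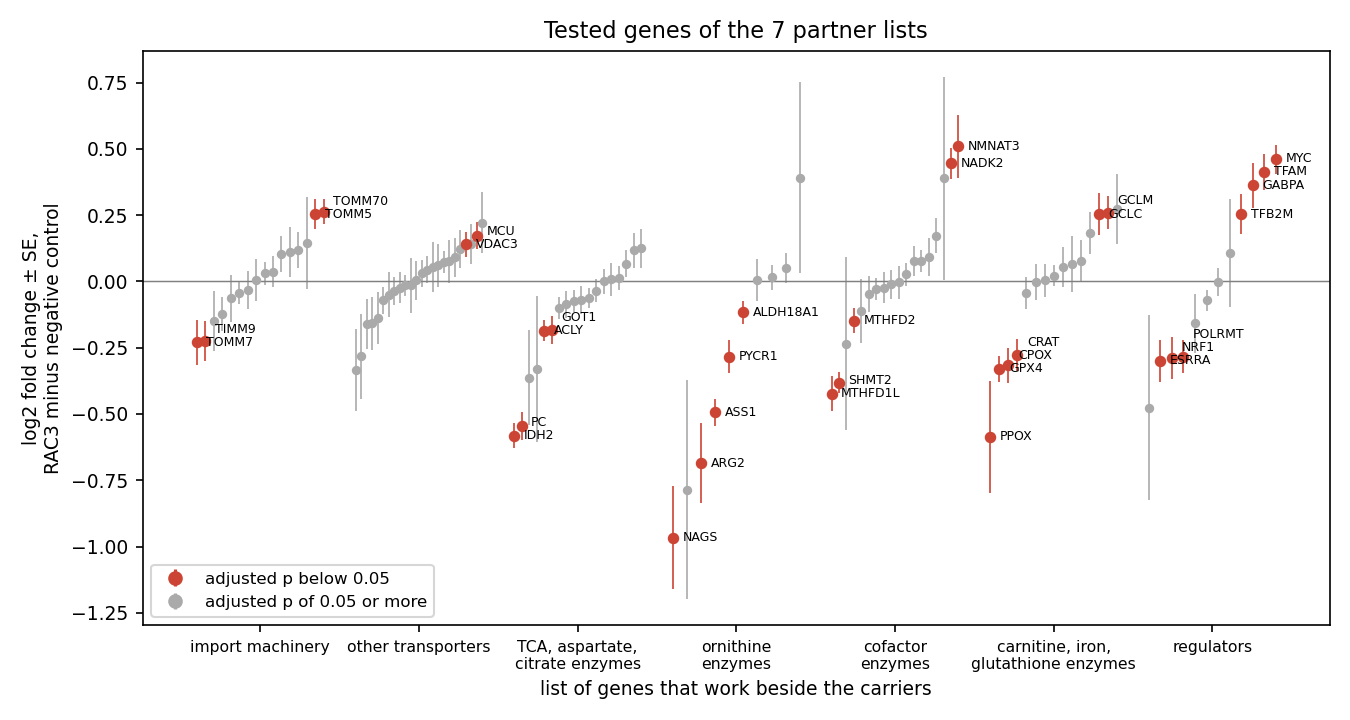
Log2 fold change with its standard error (RAC3 minus negative control) of every tested gene of the 7 lists of genes that work beside the carriers, sorted within each list, with red points for an adjusted p below 0.05. The ornithine list reaches the lowest called value, -0.97 for NAGS, and the called genes of the import list lie between -0.23 and 0.26.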

How the data were processed

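The authors deposited a table of gene counts without normalization and of FPKM values (scaled for transcript length and depth) for 3 negative controls and 3 RAC3 samples. The submitters' processing notes name Bowtie2 2.2.8, HISAT2, StringTie 1.3.1 and DESeq2, and the genome build is not given in the sources used here. The NEBNext Ultra library kit does not keep the strand. Here, 14 rows repeated under a second identifier were dropped, and counts were fitted in R 4.3.3 with edgeR 4.0.16 (TMM scaling, filterByExpr, quasi-likelihood F test, two-sided, Benjamini-Hochberg adjustment over 12929 genes, no covariate). The steps were tested on simulated data. There 95 of 100 genes changed by 1 on the log2 scale were called, and 68 of 100 changed by 0.4. Smaller changes were not simulated, so members that did not pass cannot be read as unchanged. Paralog ratios, with 0.5 added to each count, had exact two-sided permutation tests (scipy 1.17.1).

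The members and lists were chosen with earlier results of these data known. Named were members with an adjusted p below 0.05, the most abundant member of each role, members of the paralog pairs, and at most 4 called genes in each direction of a partner list; other genes are given as context. Positions come from GENCODE release 29 on GRCh38, GC content from its longest transcripts, and promoters from RefSeq (GRCh38.p14), which may not be the authors' annotation. Alternatives were DESeq2's size factors, library size alone, DESeq2 1.42.0, 2 other count filters, the replicate number as a term in the model, each sample left out in turn, removal of each library's GC trend (lowess, span 0.3), and for ratios FPKM and other added counts.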

Additional observations from a re-analysis of the deposited data

How the results depend on the processing

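The number of called members, 11, was 10 with DESeq2's size factors, 9 with library size alone, 9 with DESeq2, 11 with either other filter and 8 with the GC trend removed, and 6 to 9 with 1 sample left out. Higher members numbered 0 to 2 and lower members 6 to 7 with 1 sample left out, and lower members numbered 5 with library size alone and 5 with the GC trend removed. Past the study's thresholds were 0 to 1 members with 1 sample left out. The median log2 fold change was 0.023 with library size alone (0.060 for all genes), 0.017 with the GC trend removed (0.0034 for all genes), and -0.067 to -0.0023 with 1 sample left out. The cause of these shifts was not tested, beyond the smaller number of samples where 1 was left out. Keeping both rows of repeated genes, chosen after seeing the data, gave 11.

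Replicate numbers were shared by title only, and same-numbered samples did not deviate together (correlations -0.087, -0.046 and -0.021 over 11210 genes). The replicate block gave 10 called members, without SLC25A11, and a log2 fold change of -0.0017 for UCP2.

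No called member turned its sign in any of these fits, and several members that had not passed did. With library size alone MTCH1 had 0.010, MTCH2 0.045, SLC25A38 0.036 and SLC25A39 0.0045, all below the median of all genes in that fit, which that scaling raised. With the GC trend removed MTCH1 had 0.11, SLC25A10 0.023, SLC25A38 0.027, SLC25A42 0.035, SLC25A24 -0.13, SLC25A36 -0.045 and SLC25A39 0.10. UCP2 had -0.0026 when genes without any count alone were removed and -0.0019 with at least 10 counts required in every sample. With 1 sample left out, MTCH2 ran from -0.032 to 0.016, SLC25A24 from -0.037 to 0.065, SLC25A39 from -0.11 to 0.024, SLC25A25 from -0.072 to 0.10, SLC25A34 from -0.65 to 0.30, SLC25A38 from -0.065 to 0.029, SLC25A43 from -0.027 to 0.14, SLC25A51 from -0.29 to 0.17 and UCP2 from -0.084 to 0.068, and of the paralog ratios SLC25A39 over SLC25A40 ran from -0.014 to 0.16 and SLC25A36 over SLC25A33 from -0.067 to 0.096. MTCH1 over MTCH2 was 0.012 with FPKM. SLC25A1, SLC25A3, SLC25A5, SLC25A6, SLC25A22 and SLC25A23 kept their calls in all 6 fits that left out a sample.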

Other observations

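Several proteins that liver cells secrete moved beside the carriers. TF, the iron carrier of blood, had 763, 720.5 and 720.5 FPKM in the controls, against 509, 493 and 493 with RAC3, with a log2 fold change of -0.56. TTR had 182, 186 and 192 against 167, 163 and 154, with a log2 fold change of -0.27. FGB, a chain of fibrinogen, had 245, 240.3 and 254 against 338, 299 and 304, with a log2 fold change of 0.30, and APOB and AFP had 0.20 and 0.16. These 5 of the 9 hepatocyte markers passed an adjusted p of 0.05 in edgeR's quasi-likelihood test, beside 28.5% of all genes tested. The markers ALB, SERPINA1, HNF4A and APOA1 did not, with log2 fold changes from -0.09 for ALB to 0.12 for APOA1. AFP lost its call without negative control 2 (range from 0.12 to 0.18). With 1 sample left out ALB was called lower in 2 of 6 fits (range from -0.14 to -0.05). In those fits APOA1 ran from -0.02 to 0.19, HNF4A from -0.02 to 0.08 and SERPINA1 from -0.09 to 0.01. Removing the GC trend left FGB at 0.19 and APOB at 0.12, and AFP at 0.01 without a call, and ALB was then called lower at -0.20.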
